A study of Homo sapiens with 33 samples.

Results

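RNF220 tiles are synthetic oligonucleotides that, by their names, each carry a stretch of the RNF220 messenger RNA, and they were taken here as every line of the PUM2 count table whose tile name before the colon is RNF220. They numbered 40 of the 1599 tiles in the pool, each present with 22 barcodes, so that 880 of 35178 barcoded oligonucleotides belonged to RNF220. The pool was introduced by transfection into HEK293T, a line of human embryonic kidney cells, and no protein was overexpressed. Cells were collected after 48 hours and fixed with 0.1% formaldehyde for 10 minutes. The compared groups were 3 libraries of RNA recovered with an antibody against the cells' own PUM2 (PUM2-IP) and 3 libraries of Input. The columns name these libraries A, B and C in each group. No precipitation with a control antibody was among the PUM2 groups, so recovery through PUM2 and recovery by the antibody or the beads cannot be told apart.

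RNF220 is a RING-type E3 ubiquitin ligase that is known to ubiquitinate the corepressor SIN3B, and in mouse it acts in Sonic hedgehog signalling. PUM2 belongs to the Pumilio (PUF) family. These proteins bind short RNA elements that begin with UGUA, mostly in the 3′ untranslated regions of messenger RNAs, and recruit deadenylases that lower the stability and translation of the bound message. The RNF220 tiles are ordered by number only: their sequences, their lengths, their overlap and their place in the messenger RNA were not used here, and no tile sequence is printed for that reason.

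The largest enrichments over Input among the called RNF220 tiles were in a few tiles with high numbers. RNF220:33 was 23.95-fold and RNF220:29 was 8.13-fold higher in the PUM2 immunoprecipitate than in Input, and RNF220:34, RNF220:35 and RNF220:36 were 1.98-fold to 2.59-fold higher. At the low-number end RNF220:4 was 1.51-fold higher. RNF220:1 and RNF220:37 were lower. The remaining 32 tiles, among them every tile from 5 to 28, did not pass the test.

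The test was edgeR's quasi-likelihood F test on reads summed over the barcodes of a tile, with TMM scaling and Benjamini-Hochberg adjustment over the 1563 tiles of the pool that passed the filter on low counts, and an adjusted p under 0.05 was counted as a call. All 40 RNF220 tiles passed the filter. Of these, 6 were called higher (15%), where 14.1% of all tested tiles were called higher. The 2 called lower made up 5%, where 4.16% of all tested tiles were called lower. These shares lie close to those of the whole pool, so the number of called tiles is not a result about RNF220. A log2 fold change of at least 1 was reached by 4 of the higher tiles (10%), where 11.9% of tested tiles were called higher at that size. With library size as the only scaling, the median of all tiles moved by -0.24 on the log2 scale and the pool had 198 higher and 227 lower tiles in place of 220 and 65. The RNF220 calls were then 6 higher and 4 lower.

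The RNF220 tiles were measured at more reads than most of the pool. The immunoprecipitate libraries held 17446543, 15986799 and 17727926 reads in all, and the Input libraries held 29433144, 31568421 and 35092298. RNF220 tiles took 6.54%, 6.29% and 6.68% of the immunoprecipitate reads and 6.25%, 6.30% and 6.36% of the Input reads. The shares of the groups overlapped. The median RNF220 tile had 1358 CPM (reads scaled by the TMM-adjusted library size) in Input, against 347 CPM over the whole pool. Barcodes without a read made up 15.1%, 14.3% and 12.5% of RNF220 barcodes in the immunoprecipitates, where the whole pool had 51.5%, 49.1% and 46.8%. In Input the RNF220 shares were 3.86%, 3.41% and 2.16%, against 9.40%, 9.16% and 9.30% for the pool. The spread between libraries was wider after precipitation: the coefficient of variation of an RNF220 tile had a median of 15.8% over the immunoprecipitates and 5.59% over the Input libraries, and it was larger in the immunoprecipitate for 39 of 40 tiles.

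RNF220:33 was the most enriched RNF220 tile. It had 2684, 2613 and 2364 CPM in immunoprecipitates A, B and C, against 107, 107 and 105 CPM in Input A, B and C. Each immunoprecipitate library stood far above each Input library, and the libraries within a group differed by little. The log2 fold change was 4.58 ± 0.12 (SE, n = 3 against 3, edgeR adjusted p = 1.23e-07). In raw reads these were 42980, 37867 and 39391 against 3407, 3630 and 4083. Only RNF220:31 and RNF220:32 had fewer Input reads among the RNF220 tiles. Its fold change ranked 20 among the 1563 tested tiles. Among the 1277 tiles with at least 100 CPM in Input, a minimum chosen after the values were seen, it ranked 4.

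The barcodes of RNF220:33 carried the enrichment one by one. A barcode is a tag that tells apart copies of 1 tile, so the barcodes of a tile share its source and its libraries and are no replicates of the condition. Of the 22 barcodes, 20 had at least 30 reads over both groups, and all 20 were higher in the immunoprecipitate. In each of these 20 the lowest scaled immunoprecipitate count lay above the highest Input count. Their log2 ratios ran from 2.69 to 5.25 with a median of 4.50. Barcode 16 had the highest ratio, with 2538, 1230 and 1068 reads in the immunoprecipitates and 46, 107 and 126 in Input. Barcode 17 had the lowest, with 208, 246 and 471 reads in the immunoprecipitates and 56, 176 and 72 in Input. Barcode 10 had 596, 590 and 733 reads in the immunoprecipitates although Input A held no read of it. The barcode with the most reads held 12.8% of the tile's immunoprecipitate reads and its top Input barcode 9.61%, so no single tag set the value. The 2 barcodes left out were barcode 6, listed at 0 in all 6 libraries, and barcode 12, with 0 reads in the immunoprecipitates and 8, 0 and 3 in Input.

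RNF220:29 stood alone among its neighbours. It had 3139, 2807 and 2644 CPM in the immunoprecipitates and 367, 334 and 356 CPM in Input, and the groups did not overlap. The log2 fold change was 3.02 ± 0.12 (SE, n = 3 against 3, edgeR adjusted p = 8.13e-07), which ranked 68 in the pool. All 22 barcodes were higher in the immunoprecipitate, with log2 ratios of 1.53 to 4.56, and in 20 of them the libraries of the groups did not overlap. The tile before it, RNF220:28, had 3397, 3477 and 2863 CPM in the immunoprecipitates and 2909, 2860 and 3002 CPM in Input. That is close to the level of RNF220:29 after precipitation, but Input held it as well, and RNF220:28 was not called (0.15 ± 0.11, adjusted p = 0.395 in edgeR). The tile after it, RNF220:30, had nearly the same Input level as RNF220:29, with 404, 527 and 402 CPM in the immunoprecipitates and 337, 390 and 311 CPM in Input. It was not called either (0.36 ± 0.20, adjusted p = 0.268 in edgeR).

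Tiles 33 to 36 formed the only run of neighbouring RNF220 tiles that edgeR called in 1 direction with all libraries. DESeq2, which called 18.6% of all tested tiles higher, also called tiles 2, 3 and 4 and tiles 39 and 40 higher. RNF220:35 had 3691, 3282 and 3057 CPM in the immunoprecipitates, against 1288, 1322 and 1266 CPM in Input (log2 fold change 1.37 ± 0.10, adjusted p = 2.94e-05 in edgeR). Its groups did not overlap, and 21 of its 22 barcodes were higher. RNF220:34 had 944, 908 and 608 CPM in the immunoprecipitates, against 385, 384 and 385 CPM in Input (1.09 ± 0.20, adjusted p = 0.00488 in edgeR). Immunoprecipitate C lay well below A and B but still above all Input libraries, and 18 of 22 barcodes were higher. RNF220:36 had 2283, 2985 and 2856 CPM in the immunoprecipitates, against 1351, 1495 and 1248 CPM in Input (0.99 ± 0.13, adjusted p = 9.47e-04 in edgeR). Again 21 of 22 barcodes were higher, although the libraries of the groups were apart in 8 barcodes here, against 17 for RNF220:35 and 5 for RNF220:34. Together with RNF220:29, the 4 tiles of the run made up 17.4% ± 1.05 of the RNF220 reads in the immunoprecipitates and 6.02% ± 0.171 in Input (SD, n = 3 each).

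After precipitation tiles 29, 33, 35 and 36, picked out after their values were seen, had similar levels from unequal Input levels. Their mean was 2863, 2554, 3343 and 2708 CPM in the immunoprecipitates and 352, 107, 1292 and 1365 CPM in Input. The other tiles called higher lay apart, RNF220:34 at 820 CPM and RNF220:4 at 4076 CPM in the immunoprecipitates. The level was not particular to called tiles: the uncalled RNF220:28 had a mean of 3246 CPM in the immunoprecipitates and 2923 CPM in Input. The differences between tiles were also taken within each library, where scaling cancels. RNF220:33 lay 0.39 ± 0.07 log2 units below RNF220:35 in the immunoprecipitates and 3.60 ± 0.02 below it in Input (SD, n = 3 each), a shift of 3.21. Against RNF220:34 the shift was 3.51, against RNF220:36 it was 3.60, and against RNF220:29 it was 1.56. RNF220:29 shifted by 2.87 against RNF220:28 and by 2.66 against RNF220:30. RNF220:36 shifted by 1.57 against RNF220:37. RNF220:35 shifted least, by 0.30 against RNF220:34. For each of the 9 pairs of tiles compared, which were chosen after the values were seen, the immunoprecipitate and Input libraries did not overlap. The two-sided exact permutation test gave p = 0.1 for each, also after adjustment over the 9, and that is the smallest p that 3 libraries against 3 can give.

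Between RNF220:29 and RNF220:33 lie the scarcest RNF220 tiles, for which little can be said at this depth. RNF220:32 had 162, 160 and 96 reads in the immunoprecipitates and 104, 91 and 133 in Input. Scaled, these were 10.1, 11.0 and 5.76 CPM against 3.28, 2.69 and 3.42 CPM, which did not overlap, but the tile was not called (1.52 ± 1.13, adjusted p = 0.430 in edgeR). RNF220:31 had 1, 6 and 1 reads in the immunoprecipitates and 55, 64 and 81 in Input (-3.39 ± 1.53, adjusted p = 0.182 in edgeR). A single barcode held 48% of its Input reads. In Input C 8 of its 22 barcodes, and in Input A 17, had no read. At RNF220:30, which had 20815 immunoprecipitate and 35949 Input reads, the fold change was well below that of RNF220:29, as given above. Only for RNF220:31 and RNF220:32 did the depth leave the value open to large error.

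Means over windows of 5 consecutive tile numbers were highest in this zone. Tiles 33 to 37, which leave out the scarce RNF220:31 and RNF220:32, had a mean log2 fold change of 1.49 (SD 0.11 over the immunoprecipitate libraries). The scarce tiles weigh on the other windows: tiles 32 to 36 reached 1.91 with RNF220:32, tiles 29 to 33 had 1.22 with both, and tiles 27 to 31 had 0.007 with RNF220:31 although they hold RNF220:29. The lowest, tiles 19 to 23, was at -0.05. Tiles 29 to 40, a border chosen after the values were seen, had a median log2 fold change of 0.84 with 5 of 12 called higher (41.7%) and 1 lower (8.33%). Tiles 1 to 28 had a median of 0.04 with 1 called in each direction (3.57% each). In the pool 14.1% of tested tiles were called higher and 4.16% lower. Over all 40 tiles the median was 0.07 and over all tested tiles of the pool it was -0.06. Fold changes of neighbouring tiles went together only loosely across the 39 neighbouring pairs (Pearson's r = 0.14, Spearman's rho = 0.23), which share their libraries. Between Input level and fold change the values across the 40 tiles were near 0 or low (Pearson's r = -0.002, Spearman's rho = -0.18). The scarce tiles weigh on these values too: RNF220:31, at 1.90 CPM in Input, entered with -3.39, and no value was taken without it. Input is also the denominator of the fold change, so the correlations are a description only.

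At the low-number end RNF220:4 was called higher. It had 4302, 3810 and 4115 CPM in the immunoprecipitates, against 2632, 2640 and 2796 CPM in Input, and the groups did not overlap. The log2 fold change was 0.60 ± 0.09 (adjusted p = 0.00213 in edgeR), and 19 of its 22 barcodes were higher. This is a small change at an abundant tile: RNF220:4 had more immunoprecipitate reads than any other RNF220 tile, 192676 over 3 libraries. The neighbours did not pass. RNF220:3 had 922, 688 and 551 CPM in the immunoprecipitates against 417, 488 and 504 CPM in Input (0.62 ± 0.21, adjusted p = 0.0876 in edgeR). RNF220:5 had 873, 1061 and 1139 CPM in the immunoprecipitates against 1082, 1097 and 1080 CPM in Input, which overlapped (-0.08 ± 0.13). RNF220:2 had 1664, 1709 and 1954 CPM in the immunoprecipitates against 1430, 1386 and 1454 CPM in Input (0.32 ± 0.11, adjusted p = 0.0764 in edgeR). In RNF220:2 and RNF220:3 the groups did not overlap. DESeq2 called both higher (adjusted p = 0.00388 and 0.00843), where it called 18.6% of all tested tiles higher. Refits of edgeR called RNF220:2 higher without immunoprecipitate A (adjusted p = 0.0322) or without the most-read barcodes (adjusted p = 0.0344). They called RNF220:3 higher without immunoprecipitate C (adjusted p = 0.0192).

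The lower calls were RNF220:1 and RNF220:37. RNF220:1 had 230, 361 and 445 CPM in the immunoprecipitates, against 712, 576 and 643 CPM in Input (-0.90 ± 0.25, adjusted p = 0.0417 in edgeR). RNF220:37, next to the enriched run, had 572, 478 and 483 CPM in the immunoprecipitates, against 788, 811 and 705 CPM in Input (-0.59 ± 0.15, adjusted p = 0.0285 in edgeR). The groups did not overlap in either tile. Barcodes of these tiles were often missing after precipitation: for RNF220:1, 15, 10 and 6 of 22 had no read in the immunoprecipitates, and for RNF220:37, 9, 7 and 5, while 0 were missing in each Input library. Missing barcodes were not particular to these tiles. The uncalled RNF220:30, with a fold change above 0 (0.36), lacked 8, 7 and 10 in the immunoprecipitates, and the uncalled RNF220:10 lacked 7, 7 and 3. RNF220:33, at a lower Input level but a far higher level after precipitation, lacked 2 barcodes in each immunoprecipitate and 2, 2 and 1 in Input. The part of missing barcodes in the lower calls was not tested. Both calls were lost when any 1 Input library was left out, with edgeR adjusted p of 0.0940 to 0.166 for RNF220:1 and 0.0769 to 0.165 for RNF220:37. The fold changes in these refits were -0.97 to -0.82 for RNF220:1 and -0.65 to -0.55 for RNF220:37. The call of RNF220:1 was also lost without immunoprecipitate B (adjusted p = 0.0817 in edgeR) and when the most-read barcode of every tile was dropped (adjusted p = 0.0831 in edgeR).

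Tiles 5 to 28 had small fold changes. None of these 24 tiles was called by edgeR with all libraries, TMM scaling and no block. At an unadjusted p under 0.05 there were 4 higher and 1 lower, and no share of the pool was taken at that threshold. DESeq2 called 4 higher and 1 lower, where it called 18.6% of all tested tiles higher and 10.6% lower. Some edgeR refits also called tiles here: RNF220:10 and RNF220:22 lower with library size as the only scaling, RNF220:8 and RNF220:24 higher without immunoprecipitate B, and RNF220:13 higher without immunoprecipitate C or without the most-read barcodes. Their log2 fold changes lay between -0.46 and 0.70 with a median of 0.03. RNF220:18, the RNF220 tile with the most Input reads, had 3876, 4240 and 3591 CPM in the immunoprecipitates and 3569, 3961 and 3562 CPM in Input (0.08 ± 0.10). RNF220:7 had 3647, 3324 and 3441 CPM against 3163, 3335 and 3241 CPM in Input (0.10 ± 0.09), and RNF220:23 had 3019, 3340 and 2444 CPM against 3298, 3409 and 2659 CPM in Input (-0.09 ± 0.15). In these 3 tiles the groups overlapped. In other abundant tiles of the stretch, picked out after their values were seen, the immunoprecipitate libraries all lay above the Input libraries without a call: RNF220:8 (0.37 ± 0.14), RNF220:13 (0.34 ± 0.10, adjusted p = 0.0549 in edgeR) and RNF220:16 (0.25 ± 0.10). RNF220:24 had the highest value of the stretch, with 246, 166 and 202 CPM in the immunoprecipitates and 125, 116 and 136 CPM in Input (0.70 ± 0.28, adjusted p = 0.131 in edgeR). Its barcodes were divided, with 10 of 22 higher and a median barcode log2 ratio of -0.26, and 1 barcode held 20.8% of its immunoprecipitate reads. The lowest were RNF220:10, with 418, 331 and 463 CPM in the immunoprecipitates and 587, 542 and 536 CPM in Input (-0.46 ± 0.18), and RNF220:22, with 1278, 977 and 1333 CPM in the immunoprecipitates and 1575, 1495 and 1384 CPM in Input (-0.31 ± 0.14). RNF220:15 (-0.24 ± 0.16) and RNF220:26 (-0.19 ± 0.17) followed, and their groups overlapped.

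The last tiles after RNF220:37 did not pass. RNF220:40 had 442, 698 and 692 CPM in the immunoprecipitates and 429, 359 and 354 CPM in Input (0.68 ± 0.22, adjusted p = 0.0684 in edgeR). Immunoprecipitate A lay close to Input A, and B and C lay well above. In RNF220:39 immunoprecipitate A was again the lowest of its group, with 717, 1082 and 958 CPM in the immunoprecipitates and 648, 705 and 707 CPM in Input (0.42 ± 0.17, adjusted p = 0.145 in edgeR). RNF220:38 had 1609, 1630 and 2116 CPM in the immunoprecipitates and 1822, 1955 and 1728 CPM in Input, which overlapped (-0.04 ± 0.13). Without immunoprecipitate A, RNF220:39 and RNF220:40 were both called higher (adjusted p = 0.0177 and 0.00682 in edgeR).

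Often the groups did not overlap, in tiles with small shifts as well as in those with large ones. The immunoprecipitate libraries lay above all Input libraries in 17 RNF220 tiles (42.5%), where this held for 19.7% of tested tiles, and below them in 5 (12.5%), where it held for 20.6%. Of these 22 tiles, 14 were not called, which is 14 of 40 RNF220 tiles, where the pool had 345 such tiles among 1563 tested. RNF220 had more reads per tile than the pool, as given above. A log2 fold change above 0 was found in 26 RNF220 tiles (65%), where 710 of the 1563 tested tiles had one. The part of either in these shares was not tested. DESeq2's Wald test called 14 RNF220 tiles higher, where it called 18.6% of all tested tiles higher, and 3 lower, where it called 10.6% of all lower, with all 8 edgeR calls among them.

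When each barcode was tested by itself over the whole pool, 823 RNF220 barcodes entered the test and 29 were called higher (3.52%), where 1.99% of all tested barcodes were called higher. The 22 called lower made up 2.67%, where the pool had 18.1%. RNF220 barcodes were also less often without a read in the immunoprecipitates than those of the pool, as given above. The part of read depth in these shares was not tested. The calls upward came from the enriched zone: RNF220:33 had 14 of its 20 tested barcodes called, RNF220:29 had 11 of 22, RNF220:35 had 3 of 22 and RNF220:34 had 1 of 21. RNF220:36 and RNF220:4 had 0 of 22 called higher by edgeR. At an unadjusted p under 0.05, 1 barcode of each was higher, and 1 barcode of RNF220:4 was lower. These tiles thus passed on their summed reads and not on single barcodes. The 22 barcodes called lower were not particular to the tiles called lower. Among the tiles named by the rule given below, RNF220:1 and RNF220:37 had 2 each. RNF220:22, RNF220:23 and RNF220:30 also had 2 each, while RNF220:7 and RNF220:15 had 1 each. The rest of the 22 lay in RNF220 tiles outside that rule.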

How the data were processed

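The authors deposited raw read counts per tile and barcode from single-end amplicon sequencing of cDNA, per the labels; all values were whole numbers and column totals differed. The counting program, its settings, any molecular identifiers and a genome build are not stated by the labels or headers, and reads from PCR are not independent molecules. Columns were placed in their group by name (0 unmapped); their letters are not in the titles. Nothing says that replicates were separate cultures, so the p-values speak of the spread among the libraries only, and that spread may be technical. No library repeated another of its group (chi-square per degree of freedom 71.6 to 666 over tiles). Counts were summed over the 22 barcodes of a tile. R 4.3.3 with edgeR 4.0.16 was used: filterByExpr (36 tiles removed, 0 of RNF220), TMM, robust quasi-likelihood F test, checked on simulated data. SE is the absolute log2 fold change over the square root of F. Log2 CPM and barcode log2 ratios used a prior count of 2. Counts of higher barcodes used those with at least 30 reads. DESeq2 1.42.0 was an alternative. Named tiles were those called, their neighbours, the 5 highest and 5 lowest not called, and the 3 with most and fewest Input reads. Members, lists and rules were chosen with earlier results of these data known. The RNF220 symbol matched the RefSeq gene table, which was used for names only.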

Additional observations from a re-analysis of the deposited data

How the results depend on the processing

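The 6 higher calls (RNF220:4, 29, 33, 34, 35 and 36) were called higher in all 13 refits: scaling by RLE or by library size only, a looser filter (none) or a stricter 1 (mean count of 50), DESeq2, the replicate block by column letter, each library left out, and the most-read barcode dropped. RNF220:33 stayed between 4.34 and 4.67 and RNF220:29 between 2.79 and 3.12. With a log2 fold change of at least 1 also required, RNF220:33, 29, 35 and 34 stayed (4 higher, 0 lower; pool 35 lower). The lower calls were less firm: 2 became 4 by library size only, 1 with the replicate block (RNF220:37 at -0.59, adjusted p = 0.0541 in edgeR), 1 without the barcode of most reads, and 0 to 2 with 1 library left out. The pool's lower tiles went from 65 to 227 by library size only, 167 by DESeq2, and 12 to 146 with 1 library left out. For RNF220 the higher calls were 6 to 9 with 1 library left out, where the pool had 179 to 264. By DESeq2 they were 14, where the pool had 292. Single-barcode tests gave 29 and 22 barcodes. Same-letter deviations correlated at -0.05, -0.011 and -0.015 over 1503 tiles, and none of the immunoprecipitates correlated best with its own letter. Such values cannot tell whether libraries of 1 letter were paired, because spread that arose separately in each library would also give them. The block therefore shows only how calls move. It gave 215 higher and 79 lower tiles, and 8 and 1 for RNF220, with RNF220:8 and RNF220:13 added to the higher ones. Signs turned for uncalled tiles near 0: by library size only RNF220:7 (-0.14), RNF220:18 (-0.16) and RNF220:28 (-0.087); without the barcode of most reads RNF220:5 (0.016); and with 1 library left out RNF220:5 (-0.127 to 0.034), RNF220:38 (-0.140 to 0.044) and RNF220:23 (-0.194 to 0.067). The cause was not tested. Prior counts moved only RNF220:31 and the minimum of reads per barcode only RNF220:32 beyond their spread. By the median over barcodes RNF220:22, 24, 37 and 38 moved by more than the spread of their immunoprecipitates, to -0.56, -0.26, -1.03 and -0.30; the cause was not tested.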
